A study of Mus musculus with 6 samples.

Results

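The 3p miRNAs mmu-miR-291a-3p, mmu-miR-292a-3p, mmu-miR-294-3p and mmu-miR-295-3p of the miR-290 cluster, written below without the species prefix, were followed through 6 libraries of small RNA from mouse embryonic stem cells. They were picked by name, and each is an entry of its own among the 1899 mature miRNA entries counted. All 4 were among the 351 entries with a mean of at least 50 reads over the libraries, the set used for comparisons. The cells, of strain 129/Ola, were wild type (WT) or lacked Wt1, a zinc finger transcription factor of kidney and gonad development (Wt1 KO). WT and Wt1 KO cells were either left untreated or given retinoic acid (RA), a vitamin A derivative that drives differentiation, at 1 µM (written 1 µm in the labels). The other Wt1 KO cells received doxycycline (dox) at 1 µg/ml for 12 h or 24 h to induce Wt1. Leukemia inhibitory factor and fetal calf serum were in the medium of all groups, and the dishes were coated with gelatin. The labels state neither the length of the RA treatment nor whether the induced and the untreated Wt1 KO cells are 1 clone. Each group had 1 library, so no difference has a replicate check, and every comparison is between libraries.

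miRNAs are short RNAs that guide Argonaute proteins to messenger RNAs, mainly by pairing of the seed, bases 2 to 8 of the miRNA. A hairpin precursor can yield a miRNA from its 5′ arm (5p) and from its 3′ arm (3p). The miR-290 cluster is the dominant miRNA cluster of mouse embryonic stem cells. Its 3p miRNAs are known for lowering inhibitors of the step from G1 to S phase, among them p21, and so for keeping the fast stem cell cycle. They fall as stem cells differentiate, when let-7 miRNAs rise.

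The mature sequences, as the deposited tables give them in DNA letters, show what the 4 miRNAs share. The seed is in capitals.
miR-291a-3p: aAAGTGCTtccactttgtgtgc
miR-294-3p: aAAGTGCTtcccttttgtgtgt
miR-295-3p: aAAGTGCTactacttttgagtct
miR-292a-3p: aAAGTGCCgccaggttttgagtgt

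miR-291a-3p, miR-294-3p and miR-295-3p had the same seed, AAGTGCT. miR-292a-3p had the seed AAGTGCC, which matches the other seed up to base 7. miR-291a-3p and miR-294-3p were the closest pair, with 3 different bases over the 22 compared from the 5′ end without gaps. The other pairs differed at 7 to 11 bases over the 22 or 23 compared. None of the 4 entries held a multi-match, a read that fits several entries, in any of the 6 libraries.

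In RefSeq's GRCm38.p6 annotation the hairpins lie on the plus strand of chromosome 7 within 1923 bases, from Mir291a to Mir295 at chr7:3218919-3220841. miR-291a-3p is at chr7:3218968-3218989, miR-294-3p at chr7:3220691-3220712 and miR-295-3p at chr7:3220815-3220837. The Mir292 hairpin is at chr7:3219189-3219270. In GENCODE M21, on the same assembly, all 4 hairpins lie opposite exon 10 of Nlrp12, a protein-coding gene on the minus strand, in the part annotated as untranslated. The build the authors used is not given in the sources used here.

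Depth differed 73.0-fold between libraries, from 83626 uniquely matched reads in RA-treated Wt1 KO to 6106104 in RA-treated WT. The other 4 libraries held 1063945 to 3629658 reads. Levels are given as normalised CPM, the count divided by the library total in units of 1e6 reads after TMM scaling (trimmed mean of M values). A count of 3, the most that a count of 0 allows, equalled 27.8 normalised CPM in RA-treated Wt1 KO and 0.448 to 2.75 elsewhere. Intervals in brackets are 95% intervals for counting error only, since PCR copies without molecular identifiers are not independent molecules. An entry is called higher or lower by the size rule if the log2 ratio reaches 1 or -1 with an interval that excludes 0. Adapter ligation depends on sequence, so read counts of different miRNAs do not measure their molecules on 1 scale. Several comparisons share a library and are not independent of each other.

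miR-295-3p dominated the 4 miRNAs in each library. It was counted 73740 times in WT and 102465 in Wt1 KO without treatment, 146295 at 12 h and 343368 at 24 h of dox, 23070 in RA-treated WT and 3566 in RA-treated Wt1 KO. These are 6.93%, 5.79%, 11.9%, 9.46%, 0.378% and 4.26% of the library reads. It was the third most counted of all entries in 5 libraries and ranked 36 in RA-treated WT.

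miR-292a-3p was counted 18899 times in WT and 39095 in Wt1 KO without treatment, 25314 at 12 h and 76788 at 24 h of dox, 5706 in RA-treated WT and 603 in RA-treated Wt1 KO. Its rank among all entries ran from 7 in untreated Wt1 KO to 71 in RA-treated WT. miR-294-3p, whose addition is known to speed the cycle of stem cells that cannot process miRNAs, was counted 11179, 28607, 20815, 87869, 4099 and 765 times in the same order. Its rank ran from 8 after 24 h of dox to 90 in RA-treated WT. miR-291a-3p had the fewest reads, at 2325, 4077, 5111, 8999, 607 and 196. Its rank was 29 to 53 outside RA-treated WT and 206 there.

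**Figure D1:**
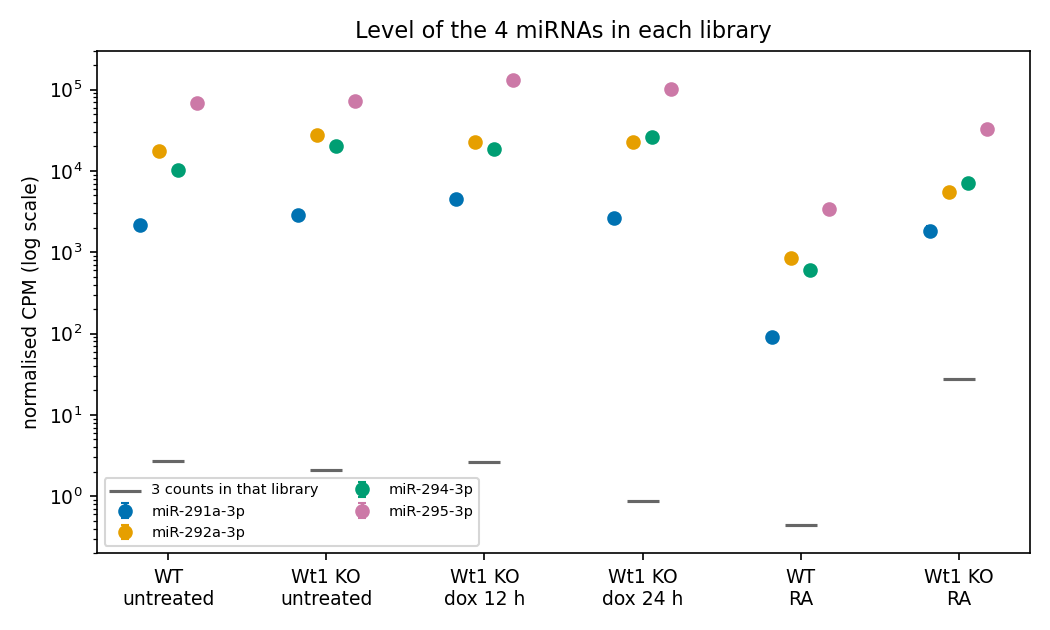
Normalised CPM (log scale) of the 4 miRNAs in each of the 6 libraries, 1 library per group, with 95% counting intervals that are smaller than the points. Grey dashes mark the level of 3 counts. The 4 points are lowest in RA-treated WT, where miR-295-3p is at 3446 normalised CPM against 33006 to 129249 in the other libraries.

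In normalised CPM, the range from the lowest to the highest library was 90.7 to 4515 for miR-291a-3p, 852 to 27706 for miR-292a-3p, 612 to 25828 for miR-294-3p and 3446 to 129249 for miR-295-3p. RA-treated WT was the lowest library and RA-treated Wt1 KO the next lowest for each of the 4. For miR-291a-3p, the latter place turned on the scaling. The order of the 4 libraries without RA differed between them: miR-291a-3p and miR-295-3p were highest after 12 h of dox, miR-294-3p after 24 h and miR-292a-3p in untreated Wt1 KO. Under TMM scaling, 1 of the 20 pairs of neighbouring libraries in these orders could not be told apart within counting error. It was miR-292a-3p after 24 h and 12 h of dox, at 22571 and 22364 normalised CPM. Other places turned on the scaling, the top place of miR-292a-3p among them. Its log2 ratio for 12 h of dox against untreated Wt1 KO ran from -0.35 to 0.02 over the settings. That of miR-294-3p ran from -0.18 to 0.19. For untreated Wt1 KO against WT, miR-295-3p ran from -0.26 to 0.14. The summed reads of the 4 miRNAs were 9.98% of WT and 9.85% of Wt1 KO without treatment, 16.1% at 12 h and 14.2% at 24 h of dox, 0.548% of RA-treated WT and 6.13% of RA-treated Wt1 KO.

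The comparison of RA with no treatment in WT cells asks how the miRNAs respond as stem cells differentiate. All 4 were much lower with RA, by similar amounts. miR-291a-3p had a log2 ratio of -4.55 [-4.69 to -4.43], miR-292a-3p of -4.35 [-4.39 to -4.30], miR-294-3p of -4.07 [-4.12 to -4.02] and miR-295-3p of -4.30 [-4.32 to -4.27]. These are 16.8-fold to 23.5-fold lower levels, where 24.2% of the 351 entries were lower by the size rule and the median entry was at 0.14. The widest gap between 2 of the miRNAs was 0.49 on the log2 scale, between miR-291a-3p and miR-294-3p. Whether fewer cells held these miRNAs or each cell held less of them cannot be told apart in bulk RNA.

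In Wt1 KO cells, RA was set against no treatment by the same measure. The ratios were smaller in size than in WT and spread more widely. miR-292a-3p was at -2.31 [-2.43 to -2.20], miR-294-3p at -1.52 [-1.62 to -1.41] and miR-295-3p at -1.14 [-1.19 to -1.09], all lower by the size rule. miR-291a-3p was at -0.67 [-0.89 to -0.46], short of the rule, and at 0.02 with counts scaled to the library total. Over all entries 23.4% were lower and the median was -0.11. Scaled to the library total, miR-292a-3p alone of the 4 passed the rule, at -1.62, with miR-294-3p at -0.82 and miR-295-3p at -0.44. With DESeq2's median of ratios miR-295-3p also lost its call, at -0.96. Scaling to the total moved the median entry from -0.11 to 0.58 and the split of all calls from 82 higher and 82 lower to 124 and 34.

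The spread in this comparison does not depend on the scaling, which enters each miRNA alike. Relative to miR-292a-3p, the ratio of miR-291a-3p was higher by 1.64 [1.40 to 1.88] and that of miR-295-3p by 1.17 [1.05 to 1.30], both in log2 units.

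**Figure D2:**
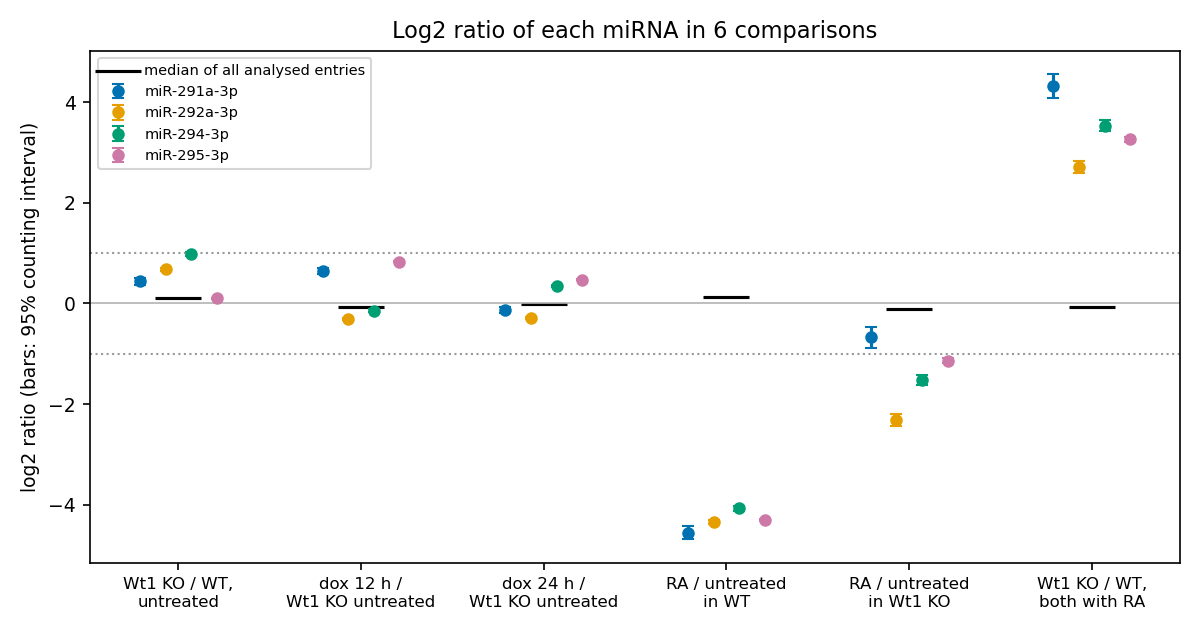
Log2 ratio of each miRNA in 6 comparisons, with 95% counting intervals; black dashes mark the median of the 351 analysed entries and dotted lines the size rule at 1 and -1. The 4 points lie close together from -4.55 to -4.07 for RA in WT and are spread from -2.31 to -0.67 for RA in Wt1 KO, where miR-291a-3p turns to 0.02 when scaled to the library total.

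Next, the RA-treated cells of both genotypes were set side by side. All 4 miRNAs were higher in the Wt1 KO library, where 17.9% of the entries were. The log2 ratio was 4.32 [4.08 to 4.56] for miR-291a-3p, 2.71 [2.59 to 2.83] for miR-292a-3p, 3.53 [3.42 to 3.64] for miR-294-3p and 3.26 [3.21 to 3.31] for miR-295-3p. In levels, miR-291a-3p stood at 1814 against 90.7 normalised CPM and miR-292a-3p at 5581 against 852. Scaled to the library total, all calls moved from 63 higher and 68 lower to 81 and 42. The difference between the RA responses themselves, Wt1 KO minus WT, was 3.88 [3.64 to 4.13], 2.04 [1.91 to 2.16], 2.55 [2.43 to 2.66] and 3.16 [3.11 to 3.21] in the same order. All 4 were higher by the size rule, as were 22.2% of the entries. The split of all calls was 78 higher and 66 lower, and 126 and 29 scaled to the library total.

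The Wt1 KO library with RA was both the shallowest and the one with the highest percentage of reads from markers of other cell types. The 14 listed markers of mesenchyme, muscle, endoderm, blood, endothelium and nerve cells held 0.689% of its reads, 0.176% in RA-treated WT and 0.0676% to 0.116% in the libraries without RA. Of the 576 marker reads in RA-treated Wt1 KO, the mesenchyme markers miR-143-3p and miR-199a-3p (1 merged entry with miR-199b-3p) gave 372 and 104. Markers of other tissues went both ways on few reads. Nerve cell miR-124-3p (3 reads) held 0.00359% against 0.000983% in RA-treated WT. Endothelium miR-126a-3p (6 reads) held 0.00717% against 0.00234%, and endoderm miR-122-5p (1 read) 0.00120% against 0.000131%. Muscle miR-133a-3p (24 reads) held less, 0.0287% against 0.0463% in RA-treated WT. Also lower were endoderm miR-375-3p (17 reads), with 0.0203% against 0.0273%, and nerve cell miR-9-5p (23 reads), with 0.0275% against 0.0323%. There 4 of the 14 markers were at 0, miR-1a-3p, miR-145a-5p, miR-142a-3p and miR-223-3p, and miR-1a-3p and miR-223-3p were at 0 in all 6 libraries. The part of depth and of these markers in the results with RA was not tested.

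Untreated Wt1 KO was compared with untreated WT to see what the loss of Wt1 changes in stem cells. None of the 4 miRNAs passed the size rule, where 27.6% of the entries did in either direction. miR-294-3p came closest, at 0.98 [0.95 to 1.01], followed by miR-292a-3p at 0.68 [0.65 to 0.70] and then miR-291a-3p at 0.44 [0.36 to 0.51]. The most abundant, miR-295-3p, was at 0.10 [0.09 to 0.12], and at -0.26 scaled to the library total, a scaling that moved the median entry from 0.11 to -0.24. The split of all calls then went from 43 higher and 54 lower to 25 and 77. With multi-matches added to the counts of all entries, miR-294-3p passed the rule, at 1.02. It holds no multi-match itself, so its ratio moved through the scaling alone, by 0.04, as did those of the other members. Free of scaling, miR-294-3p was higher relative to miR-295-3p by 0.88 [0.85 to 0.92].

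Induction of Wt1 by dox was set against untreated Wt1 KO. None of the 4 passed the size rule at 12 h or 24 h, where 13.1% and 9.4% of the entries did. After 12 h, miR-295-3p was at 0.83 [0.82 to 0.84], which becomes 1.04 and a call when scaled to the library total, whereas miR-291a-3p stood at 0.64 [0.58 to 0.70]. At the same time miR-292a-3p was at -0.31 [-0.33 to -0.29], or 0.02 when scaled to the library total less the miR-290 and miR-302 clusters. miR-294-3p was at -0.14 [-0.17 to -0.11], and at 0.07 scaled to the total. All calls were 15 higher and 31 lower, or 35 and 13 scaled to the total. Free of scaling, the gap between miR-295-3p and miR-292a-3p at 12 h was 1.14 [1.12 to 1.17].

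After 24 h of dox, miR-295-3p was at 0.47 [0.46 to 0.49] and miR-294-3p at 0.35 [0.33 to 0.37]. miR-292a-3p was at -0.30 [-0.31 to -0.28], while miR-291a-3p stood at -0.13 [-0.18 to -0.07], and scaling to the total less both clusters turned them to 0.01 and 0.18. All calls were 20 higher and 13 lower, or 31 and 10 scaled to the library total. Between 24 h and 12 h, where 5.13% of the entries passed the size rule, miR-294-3p was at 0.49 [0.47 to 0.51]. For miR-291a-3p the value was -0.77 [-0.82 to -0.72]. Free of scaling, these differ by 1.26 [1.21 to 1.32].

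The dox libraries were also set against untreated WT. miR-291a-3p was higher after 12 h, at 1.08 [1.01 to 1.15], where 12.3% of the entries were higher. The call is lost when counts are scaled to the library total, at 0.93, where all calls move from 43 higher and 62 lower to 32 and 72. miR-295-3p and miR-294-3p were at 0.93 [0.92 to 0.95] and 0.84 [0.81 to 0.87], below the rule. After 24 h miR-294-3p was higher, at 1.33 [1.30 to 1.36], where 11.1% of the entries were, and the other 3 lay between 0.31 and 0.58. Dox-treated cells without the inducible gene were not analysed here.

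The make-up of the reads of the 4 miRNAs needs no scaling between libraries. miR-295-3p made up 69.5% of them in WT and 58.8% in Wt1 KO without treatment, 74.1% at 12 h and 66.4% at 24 h of dox, 68.9% in RA-treated WT and 69.5% in RA-treated Wt1 KO. Its share was lowest in untreated Wt1 KO. miR-292a-3p had its highest share there, 22.4%, and its lowest in RA-treated Wt1 KO, 11.8%.

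miR-294-3p held 10.5% in WT and 16.4% in Wt1 KO without treatment, 10.5% at 12 h and 17.0% at 24 h of dox, 12.2% in RA-treated WT and 14.9% in RA-treated Wt1 KO. It outnumbered miR-292a-3p after 24 h of dox and in RA-treated Wt1 KO, and was below it in the other 4 libraries. miR-291a-3p held 1.74% to 2.59% in 5 libraries and 3.82% [3.31% to 4.38%] in RA-treated Wt1 KO. In WT the make-up with RA was near that without: the share that moved most was that of miR-294-3p, from 10.5% to 12.2%, while the 4 miRNAs together went from 9.98% to 0.548% of the reads.

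**Figure D3:**
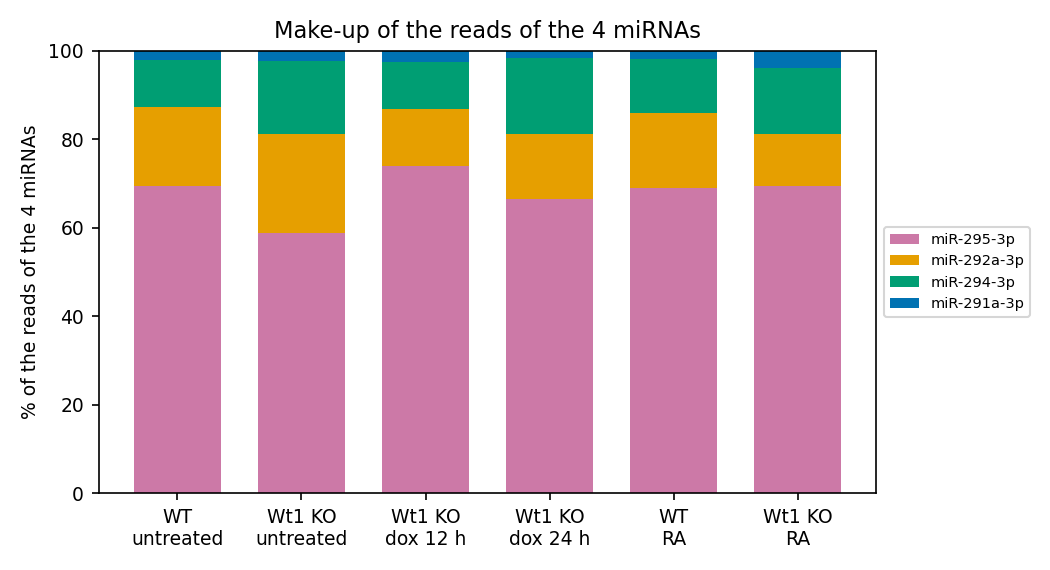
Reads of each miRNA as a percentage of the reads of the 4 miRNAs, in stacked bars, 1 bar per library. miR-295-3p takes 58.8% to 74.1% of each bar, and the bars of WT without and with RA are close to each other.

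The partner arms of the hairpins were not used to choose the 4 miRNAs. They are printed to show that they carry other seeds, again in capitals.
miR-291a-5p: cATCAAAGtggaggccctctct
miR-292a-5p: aCTCAAACtgggggctcttttg
miR-294-5p: aCTCAAAAtggaggccctatct
miR-295-5p: aCTCAAATgtggggcacacttc

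For miR-294 and miR-295 the 3p arm was nearly all of the hairpin's reads, 97.4% to 99.2% and 99.0% to 99.6% over the 6 libraries. For miR-291a the 5p arm had more reads in each library. The miR-291a-3p reads were 9.29% of the hairpin's reads in WT and 10.2% in Wt1 KO without treatment, 14.6% at 12 h and 11.4% at 24 h of dox, 17.6% in RA-treated WT and 22.4% in RA-treated Wt1 KO. Both libraries with RA thus lay above all 4 without it, by more than counting error: the interval in RA-treated WT was 16.4% to 18.9%, that after 12 h of dox 14.3% to 15.0%.

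For miR-292a the 3p arm was the smaller one in 5 libraries. Its share was 36.6% to 37.7% in the 4 libraries without RA, 50.8% [49.8% to 51.7%] in RA-treated WT and 34.4% [32.2% to 36.7%] in RA-treated Wt1 KO. By read counts, then, the 3p arm was not the larger one for miR-291a in any library or for miR-292a in 5 of 6, with the limit that reads of different miRNAs are not on 1 scale of molecules. With RA in WT, miR-291a-5p was at -5.62 and miR-292a-5p at -5.12, against -4.55 and -4.35 for their 3p arms.

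**Figure D4:**
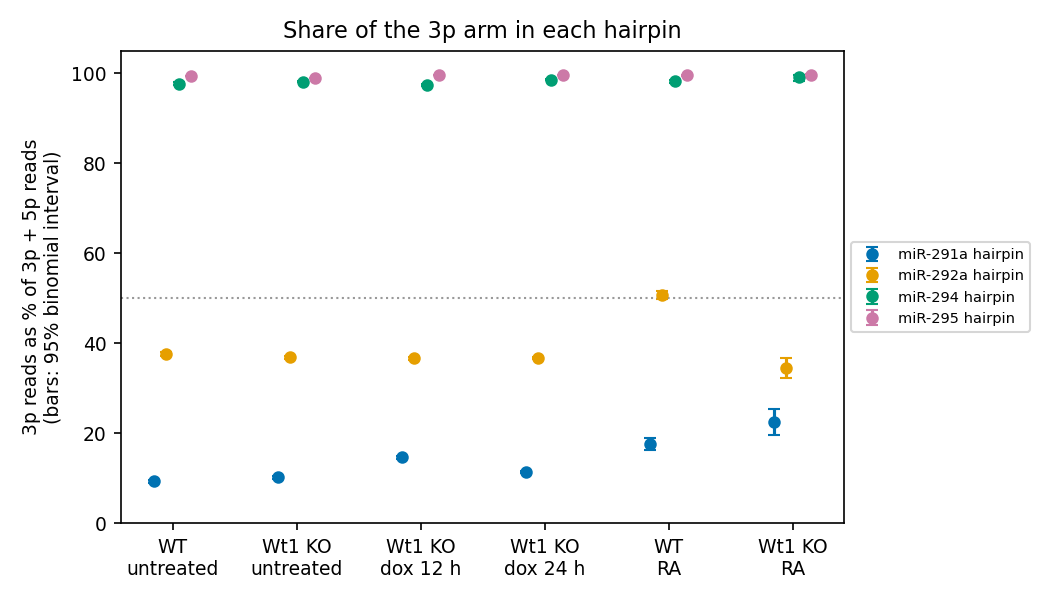
Reads of the 3p arm as a percentage of the 3p and 5p reads of each hairpin, by library, with 95% binomial intervals. The miR-294 and miR-295 hairpins stay above 97%, miR-291a lies between 9.29% and 22.4%, and miR-292a exceeds 50% in RA-treated WT alone.

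Of the 14 other listed entries of the cluster, 9 were analysed. All 9 were lower with RA in WT, where 24.2% of all entries were, with a median of -4.47. All 9 were higher in RA-treated Wt1 KO than in its WT counterpart, where 17.9% of all entries were, with a median of 3.68. With no minimum mean count, 8 of 9 were higher. In RA-treated Wt1 KO miR-291b-5p rested on 2 reads, miR-290a-3p on 5 and miR-294-5p on 6. The calls of these entries here and in the next comparison rest on those few reads. In RA-treated against untreated Wt1 KO, 7 of 9 were lower, where 23.4% of all entries were, with a median of -2.02, and 4 of 9 under either CPM scaling or with DESeq2's median of ratios. The others were miR-293-3p at -0.75 and miR-293-5p at 0.14 [-0.25 to 0.51]. Untreated, none passed the size rule between Wt1 KO and WT, where 27.6% of all entries did. Under either CPM scaling or with a minimum mean count of 10, 1 was lower. The share of the 4 miRNAs in all reads of the cluster ran from 58.5% in untreated Wt1 KO to 73.0% in RA-treated WT.

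The seeds of the 4 miRNAs are found in 5 further entries. AAGTGCT is the seed of miR-302a-3p, miR-302b-3p and miR-302d-3p, from a cluster of primed pluripotent cells. AAGTGCC is that of miR-290a-3p, of the miR-290 cluster, and of miR-467a-5p, of a large rodent cluster in Sfmbt2. One of each seed is shown, for comparison beyond the seed, with its seed in capitals, and with them miR-93-5p of the miR-17 family, whose seed holds the letters AAGTGC 1 base further on.
miR-302d-3p: tAAGTGCTtccatgtttgagtgt
miR-467a-5p: tAAGTGCCtgcatgtatatgcg
miR-93-5p: cAAAGTGCtgttcgtgcaggtag

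The 4 miRNAs supplied 97.3% to 99.5% of the reads with either seed. With the shorter match of bases 2 to 7, AAGTGC, 13 entries qualified, and the 4 miRNAs supplied from 86.2% of their reads in RA-treated WT to 98.1% after 12 h of dox. For AAGTGCC alone, miR-292a-3p supplied 96.7% to 98.5% in the libraries without RA, 87.7% in RA-treated WT and 89.7% in RA-treated Wt1 KO. In both libraries with RA most of the rest was miR-467a-5p, with 773 reads in WT against 64 for Wt1 KO. The reads with either seed made up 10.1% of WT and 9.90% of Wt1 KO without treatment, 16.2% at 12 h and 14.4% at 24 h of dox, 0.563% of RA-treated WT and 6.23% of RA-treated Wt1 KO.

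The miR-17 family, which promotes proliferation through the seed AAAGTGC, was level by comparison. Its 7 entries, of which miR-6383 had no read, held 0.625% to 0.731% of the reads in all 6 libraries. RA-treated WT was the one library where they outnumbered the seeds of the 4 miRNAs, with 0.625% [0.619% to 0.631%] against 0.563% [0.558% to 0.569%]. That order depends on the seed length: the entries matching bases 2 to 7, AAGTGC, held 0.636% [0.630% to 0.642%] there. Its members did not move alike: with RA in WT, miR-106a-5p was at -3.90 and miR-20b-5p at -3.82, while miR-17-5p was at 0.69 and miR-93-5p, the most abundant, at -0.22. Of the 6 analysed, 2 were lower and none higher, against 24.2% and 22.5% of all entries, with a median of 0.14.

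**Figure D5:**
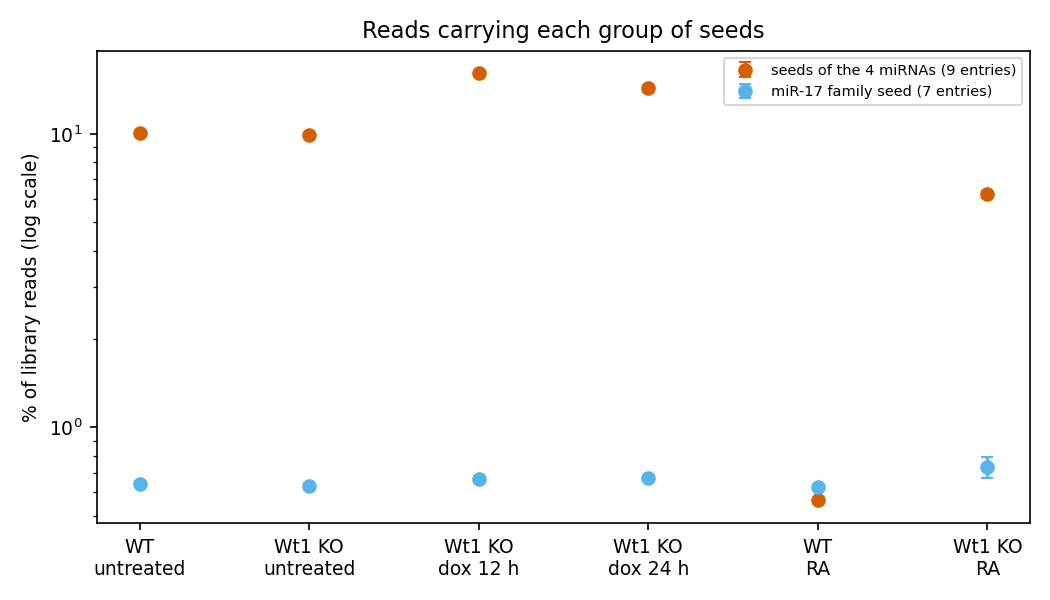
Percentage of library reads (log scale) from the 9 entries with a seed of the 4 miRNAs and from the 7 entries with the miR-17 family seed, with 95% binomial intervals. The first group goes from 10.1% to 0.563% between WT without and with RA, while the second stays between 0.625% and 0.731% in all libraries.

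The miR-302 cluster shares a seed with 3 of the 4 miRNAs, and 3 of its 10 listed entries were analysed. These 3 were lower in untreated Wt1 KO than in untreated WT, with a median of -2.28, where 15.4% of the entries were lower. They were higher after 24 h of dox than in untreated Wt1 KO, with a median of 2.24, where 5.7% of the entries were higher. The 4 miRNAs lay at 0.10 to 0.98 and at -0.30 to 0.47 in these comparisons, and the difference from miR-302 was not tested. With RA in WT the 3 were lower as well, at a median of -5.38, where 24.2% of the entries were lower. The most counted, miR-302d-3p, had 496 reads in untreated WT, against 73740 of miR-295-3p.

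Members of the let-7 family, which lower stem cell factors and oppose the miR-290 cluster, went the other way with RA. In WT 6 of 7 analysed members were higher with RA, as were 22.5% of all entries, with a median of 1.93, among them let-7c-5p at 2.69 [2.58 to 2.80], let-7e-5p at 1.41 and let-7a-5p at 1.93. In Wt1 KO 4 of 7 were higher, as were 23.4% of all entries, with a median of 1.36. The members not called there rest on 10 reads or fewer in RA-treated Wt1 KO, so the numbers of calls in WT and Wt1 KO are not on equal depth. Under either CPM scaling 5 of 7 were higher, and scaling to the library total also raised the number of all entries called higher. The summed let-7 reads were 0.0445% to 0.139% without RA, 0.680% in RA-treated WT and 0.475% in RA-treated Wt1 KO. In RA-treated WT they were thus above the summed reads of the 4 miRNAs, and in RA-treated Wt1 KO below them.

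Outside the cluster, the 5 entries whose log2 levels over the 6 libraries were most like the mean of the 4 miRNAs were miR-20b-3p, miR-363-3p, miR-466g, miR-29a-3p and miR-20b-5p, with Pearson r from 0.977 to 0.987. The median over the 338 other analysed entries was -0.08. The 9 other entries of the cluster had r from 0.951 to 0.994. With 6 libraries, of which the 2 with RA are the lowest, these values are a description. miR-363-3p, from the X-linked cluster that also holds miR-20b, had 1501, 2174, 2241, 1986, 180 and 676 normalised CPM in untreated WT, untreated Wt1 KO, 12 h and 24 h of dox, RA-treated WT and RA-treated Wt1 KO. miR-20b-3p rests on 2 reads in RA-treated Wt1 KO and 10 in RA-treated WT. miR-29a-3p, miR-20b-5p and miR-466g rest on 8, 15 and 17 reads in RA-treated Wt1 KO.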

How the data were processed

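Small RNA was sequenced from 6 libraries, 1 per group. Per the labels' protocols, adapter-ligated products of miRNA length and a band of longer small RNAs were cut from a gel together. The deposited values are counts of reads per mature miRNA entry, per the file headers as unique matches or as multi-matches. The aligner, the mismatches it allowed, the miRBase version and the genome build: not given in the sources used here. Unique matches were used, with multi-matches in an alternative alone.

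Counts were scaled by TMM over the 351 entries averaging 50 reads or more (edgeR 4.0.16, R 4.3.3), and log2 ratios took a prior count of 0.5 scaled to library size. Ratios and shares have exact conditional binomial or binomial (Clopper-Pearson) 95% intervals. Differences of ratios have delta-method intervals. No p-value is given, as no group has replicates. On simulated data for RA in Wt1 KO, with 351 entries, intervals covered the true ratio for 94.9% of entries. The size rule called 91% of the changed and 1.3% of the unchanged entries there. For RA in WT and for 24 h of dox against untreated Wt1 KO it called 100% and 0%. Those counts were drawn as Poisson with known library sizes, the model that the intervals assume. The simulation thus checks the calculation alone, and not PCR copies, differences between cultures or the scaling.

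Alternatives were other scalings, minimum counts, prior counts and added multi-matches. The 4 miRNAs and all lists were chosen with earlier results of these data known. Other miRNAs were named by rule: up to 3 per list by mean level, the 5 most alike, the sharers of a seed and the partner arms. miR-20b-5p and miR-106a-5p of the miR-17 family were named after their values were seen. Named outside the rule were the further cell type markers, miR-6383, and miR-291b-5p and miR-293-5p of the miR-290 cluster. Sequences were read from the deposited tables, coordinates from RefSeq (GRCm38.p6) and GENCODE M21.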

Additional observations from a re-analysis of the deposited data

How the results depend on the processing

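Of 9 alternative settings, 8 were these: 2 CPM scalings (of the library total, or of the total less both stem cell clusters, miR-290 and miR-302), the median of ratios (DESeq2 1.42.0), a minimum mean count of 10, 200 or none, a prior count of 5, and unique plus multi-matches. TMM over 5 libraries, without RA-treated Wt1 KO, was chosen after seeing the data. No called ratio of the 4 miRNAs changed sign under those run. The number of the 4 past the size rule moved as follows. For RA in Wt1 KO it was 3, 1 under either CPM scaling, 2 with the median of ratios and 4 with no minimum mean count. For 12 h of dox against untreated Wt1 KO it was 0, and 1 under either CPM scaling. For 12 h of dox against untreated WT it was 1, and 0 as CPM of the total. For untreated Wt1 KO against WT it was 0, and 1 with multi-matches.

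RA in WT, the genotypes under RA and the difference of the RA responses kept 4 of 4 under each alternative run for them. TMM over 5 libraries gives no value for comparisons that use RA-treated Wt1 KO. Over the settings that gave a value, miR-295-3p ranged from -4.44 to -4.20 for RA in WT, from -1.49 to -0.44 for RA in Wt1 KO and from 2.84 to 3.63 for Wt1 KO against WT with RA. Counts over all entries moved by more than 1.5 times with the minimum mean count, for example for RA in WT from 85 lower to 52 at a minimum of 200 and 156 with none, and from 79 higher to 50 and 121. For 12 h of dox they went from 15 higher to 7 and 51, and for 24 h from 20 to 11 and 48. Arm shares and seed shares stayed within their intervals when multi-matches were added. Shares within the 4 miRNAs could not move, as they hold no multi-match. No paired analysis was possible because each group has 1 library and the labels give no replicate numbers. Depth limits RA-treated Wt1 KO most, where miR-291a-3p rests on 196 reads.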
